A study of Mus musculus with 12 samples.

Results

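CC chemokines are the subject here: the 10 genes Ccl2, Ccl3, Ccl4, Ccl5, Ccl6, Ccl7, Ccl8, Ccl9, Ccl24 and Ccl21a, picked by symbol out of 16970 genes measured in 12 mouse liver libraries. They were named with the levels and group differences of these same libraries already known, among them Ccl21a and Ccl24 in the ligated livers. Their values are therefore descriptions, and each adjusted p below, taken over all genes tested, describes the fit and is no independent evidence. The table held 11 further CC chemokine genes, which are given beside them.

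All mice had cholestasis, in which bile is held back in the liver. The groups titled BDL and BDL_H had the bile duct ligated for 7 days, and BDL_H is taken as the group that received the bile acid HDCA (hyodeoxycholic acid) at 100 mg/kg for 4 days from day 3 after surgery. The groups titled MDR and MDR_H are taken as the Abcb4-/- mice of the series description, aged 60 days, with MDR_H given HDCA at 100 mg/kg over 21 days; Abcb4 encodes the transporter that puts phosphatidylcholine into bile. Each group had 3 libraries. The labels give neither strain nor sex, no age for the ligated mice and no vehicle for the untreated ones, and no healthy liver was analysed here. Ligation and knockout also differ in surgery, duration of disease, length of treatment and, by the Y-linked reads given below, largely in sex. The cause of a difference between the models therefore cannot be told apart. Whether the 3 replicates were different animals is not said, and the spread behind each p may then be technical. Only in MDR do the Y-linked reads differ between replicates, so its libraries did not all come from the same animal.

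CC chemokines are small secreted proteins with a pair of adjacent cysteines. They bind G protein-coupled receptors on leukocytes and draw those cells along gradients into tissue. In injured liver, resident macrophages (Kupffer cells), recruited monocytes, endothelium, stellate cells and bile duct epithelium can all release them, and CCL2 acting on CCR2 is a well known route by which monocytes enter. CCL21 differs in use: lymphatic vessels and lymphoid stroma make it, and it guides dendritic cells and T cells that carry CCR7.

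Values are FPKM, fragments per kilobase of gene model, scaled to the library's fragments. Reads recovered from them came to 34260782 to 40427855 per library. Libraries BDL replicate 1 and BDL_H replicate 2 stood apart, with a median log2(FPKM + 1) of 2.48 and 2.56 over the 10805 genes tested against 2.81 to 3.06 in the other libraries. Y-linked genes summed to 16.1 to 20.1 FPKM in the BDL and BDL_H libraries and MDR replicate 1, and to at most 0.016 in the other MDR and MDR_H libraries. MDR replicate 1 thus differs in Y-linked reads from the other libraries of its model, and the models differ in them too. Sex, read from these genes, runs largely with the model, and wholly so in MDR_H against BDL_H. Abcb4 was not lower in the groups taken as its knockout (150.1 to 181.3 FPKM in MDR, 52.8 to 167.8 in BDL), so the reading of the titles rests on the series description alone; gene-level FPKM cannot show a disrupted allele that still makes a transcript. Leaving out these 3 libraries together, BDL replicate 1, BDL_H replicate 2 and MDR replicate 1, ended no call among the 10 genes. Liver as the labelled tissue was seen in its hepatocyte markers, led by Alb, which summed to 32943 to 65011 FPKM.

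Of the 10 genes, 8 lie on chromosome 11 and form a pair of groups. Ccl2 (GRCm38 positions 82035571 to 82037453), Ccl7 (82045712 to 82047525) and Ccl8 (82115185 to 82116799) make one. Ccl5 (83525778 to 83530518), Ccl9 (83572919 to 83578636), Ccl6 (83587882 to 83593087), Ccl3 (83647844 to 83649355) and Ccl4 (83662584 to 83664683) make the other, and 9245 bases separate the neighbours Ccl6 and Ccl9. Ccl24 lies on chromosome 5 (135569937 to 135573049) and Ccl21a on chromosome 4 (42772860 to 42773993). All 10 are protein-coding genes in GENCODE M21, and none shares exons with another gene there. In that transcript set Ccl21a shares an identical stretch of 208 bases with Ccl21b and with Gm10591, and of 370 bases with Gm13304 and Gm21541, so its reads may be split between copies. Ccl21b stayed at or under 0.050 FPKM and Gm10591 at or under 0.124 in every library, while the other copies were not analysed here. Ccl9 shares stretches of 50 to 73 bases with transcripts of 250 genes, and the other 8 have no shared stretch of 50 bases or more.

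Promoters are shown for Ccl6 and Ccl9, the neighbouring genes with the highest levels, and for Ccl8 and Ccl21a, which differed most between the models and whose profiles over the libraries were each other's nearest among the 10. Each line holds the 250 bases before the RefSeq start of the gene, 5′ to 3′ on the gene's strand, with matches to TATAAA on either strand in capitals.
Ccl6 (GRCm38.p6, chr11:83593088-83593337, minus strand): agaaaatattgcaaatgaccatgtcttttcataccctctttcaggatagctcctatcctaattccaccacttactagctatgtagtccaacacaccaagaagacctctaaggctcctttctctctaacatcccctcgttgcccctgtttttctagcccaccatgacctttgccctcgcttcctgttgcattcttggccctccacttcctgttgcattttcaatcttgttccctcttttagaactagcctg
Ccl9 (GRCm38.p6, chr11:83578637-83578886, minus strand): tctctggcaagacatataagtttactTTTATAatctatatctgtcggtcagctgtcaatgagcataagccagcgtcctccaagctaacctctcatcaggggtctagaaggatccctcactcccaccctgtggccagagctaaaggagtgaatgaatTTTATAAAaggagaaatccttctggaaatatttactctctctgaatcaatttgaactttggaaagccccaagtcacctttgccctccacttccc
Ccl8 (GRCm38.p6, chr11:82114935-82115184, plus strand): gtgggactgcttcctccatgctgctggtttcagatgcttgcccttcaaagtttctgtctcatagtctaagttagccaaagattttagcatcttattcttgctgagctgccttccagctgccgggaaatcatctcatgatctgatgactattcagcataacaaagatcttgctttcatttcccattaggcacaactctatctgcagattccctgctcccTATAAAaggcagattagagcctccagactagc
Ccl21a (GRCm38.p6, chr4:42773992-42774241, minus strand): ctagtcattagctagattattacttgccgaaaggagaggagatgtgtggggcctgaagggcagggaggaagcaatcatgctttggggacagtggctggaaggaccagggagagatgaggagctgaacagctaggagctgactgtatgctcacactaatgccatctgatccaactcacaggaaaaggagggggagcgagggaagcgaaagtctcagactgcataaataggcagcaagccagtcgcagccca
RefSeq promoters were matched for 5 of the 10 genes, Ccl3 being the fifth. TATAAA was found 27 to 32 bases before the start of Ccl8 and, in Ccl9, at 87 to 92 bases on the gene's strand and at 89 to 94 and 219 to 224 bases on the opposite one, the first pair overlapping. Ccl3, Ccl6 and Ccl21a held no match in this window; 12.4% of 32851 promoter windows of this length held one.  The longest identical stretch between the Ccl6 and Ccl9 windows was 13 bases, and between those of Ccl8 and Ccl21a it was 7.

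Levels of the 10 genes spanned a wide range. Over the 12 libraries Ccl9 averaged 43.1 FPKM (27.9 to 58.8) and Ccl6 42.2 (25.1 to 66.5), ranges that overlap almost wholly. Both are myeloid chemokines of rodents that act on CCR1. Together they held 72.4 to 88.4% of the summed FPKM of the 10 genes in BDL and BDL_H libraries and 59.7 to 67.9% in MDR and MDR_H libraries. Ccl21a followed with a mean of 11.7 FPKM and Ccl2 with 10.6, then Ccl5 with 5.23, Ccl24 with 2.78 and Ccl8 with 2.73. Ccl3 (0.963), Ccl7 (0.884) and Ccl4 (0.874) were the lowest, with 7 to 80 reads per library, and their ranges overlap. The counting error of these 3 genes is therefore large, and so is that of Ccl8 in BDL and BDL_H, where it had 0 to 10 reads.

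The order differed between the models. In BDL the means ran from Ccl9 (49.3 FPKM) and Ccl6 (36.6) to Ccl2 (10.4), Ccl24 (4.59), Ccl5 (2.17) and Ccl21a (0.748), with Ccl8 last at 0.248. In MDR they ran from Ccl6 (45.1) and Ccl9 (39.5) to Ccl21a (23.0), Ccl2 (10.4), Ccl5 (7.46) and Ccl8 (5.45), with Ccl24 at 1.92. Ccl6 and Ccl9 overlapped in every group, as did Ccl5 and Ccl8 in MDR. Ccl8 and Ccl21a thus moved up the order in MDR and Ccl24 moved down.

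**Figure D1:**
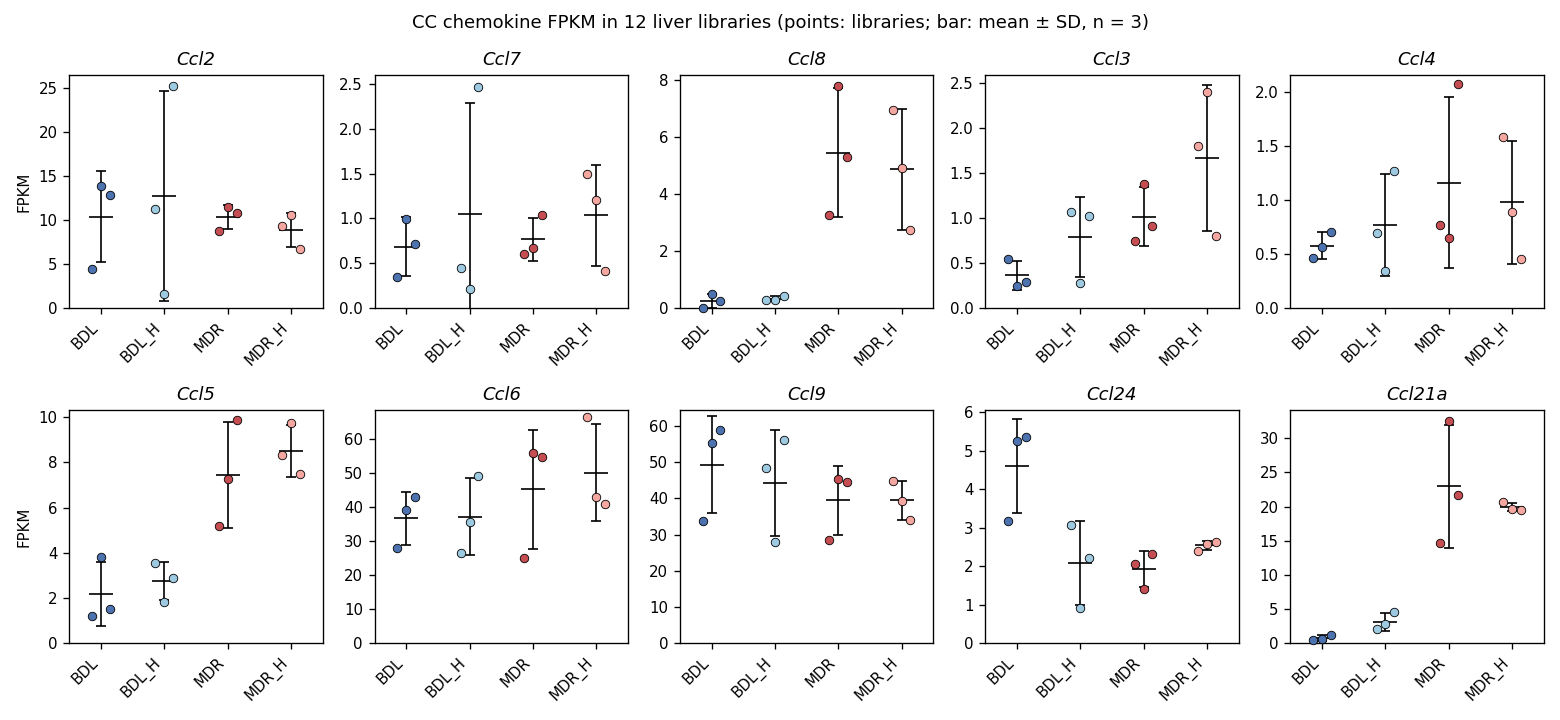
FPKM of the 10 CC chemokines (vertical axes, each from 0) in the 4 groups (horizontal axes); points are libraries, in order of replicate number, and bars are means ± SD of 3 libraries, cut off at 0. Ccl8, Ccl5 and Ccl21a lie higher in every MDR and MDR_H library than in any BDL or BDL_H library, and Ccl2 spreads from 1.65 to 25.3 FPKM within BDL_H. Between the untreated groups alone, 39.2% of all genes tested lay apart in this direction.

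The HDCA comparison in ligated livers asked what the bile acid changed there. Ccl21a was higher and Ccl24 lower in BDL_H than in BDL, with no overlap between the groups, and the other 8 genes overlapped. None of the 10 passed the test. Across all genes limma called 0% (0 of 10805; 243 genes, 2.25%, had an unadjusted p under 0.05), limma-voom also called 0, and groups lay apart for 3.43% of genes upward and 1.59% downward.

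Ccl21a was at 0.441, 0.633 and 1.17 FPKM in BDL (15, 22 and 39 reads) and at 2.02, 2.80 and 4.52 in BDL_H (68, 97 and 159 reads). Every treated library was above every untreated one, and the ratio of the mean FPKM was 4.16. The difference of 1.21 ± 0.28 (SE) in log2(FPKM + 1) had a limma adjusted p of 1.00 and lay between 0.98 and 1.41 without any 1 library. With a pseudocount of 0.1 it was 1.94 and with limma-voom 2.08, neither called. Markers of lymphatic endothelium summed to 16.0 to 21.6 FPKM in BDL and 21.4 to 28.1 in BDL_H, with 5 of 6 markers higher by their mean FPKM, Prox1 being the exception, and none called. Prox1, which hepatocytes also express, held 18.9 of the 21.6 FPKM in BDL replicate 1 and 15.9 of the 28.1 in BDL_H replicate 2. These sums therefore do not measure lymphatic vessels alone. Markers of stellate cells and fibroblasts summed to 61.5 to 120.9 and 123.2 to 204.4 FPKM, with 10 of 10 higher and none called, and those of blood and sinusoidal endothelium to 30.1 to 131.9 and 122.9 to 140.8, again 10 of 10 higher and none called. In these last lists, of stellate cells and fibroblasts and of endothelium, the lowest BDL sum was that of BDL replicate 1, which stood apart. BDL replicates 2 and 3 were at 94.5 and 120.9 FPKM in the former and 92.0 and 131.9 in the latter. The part of lymphatic, stellate and endothelial cells in the Ccl21a values was not tested. In bulk liver, fewer cells of a type and less RNA per cell cannot be told apart.

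Ccl24, which encodes eotaxin-2, a ligand of the eosinophil receptor CCR3, was at 3.18, 5.24 and 5.35 FPKM in BDL and at 3.08, 0.914 and 2.22 in BDL_H. The highest treated value lay just under the lowest untreated one. The log2 difference was -0.91 ± 0.26 (SE; limma adjusted p = 1.00), and without BDL_H replicate 2, a library that stood apart, it was -0.60. Eosinophil and mast cell markers gave no measure of its target cells: of 8, only Ear2 was tested, Epx was at 0 in all BDL and BDL_H libraries, and Prg2 was at 0 in all BDL_H ones. Ccr3 itself was at 0.0072 to 0.092 FPKM in BDL and BDL_H.

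Ccl2, the main monocyte attractant of the family, was at 4.49, 13.9 and 12.9 FPKM in BDL and at 11.3, 1.65 and 25.3 in BDL_H. The groups overlap entirely, and single libraries decide the sign. The log2 difference was -0.14 ± 0.66 (SE) with all libraries, 0.79 without BDL_H replicate 2, -0.87 without BDL_H replicate 3 and 0.32 without the pair that stood apart. The lowest value of each group belonged to a library that stood apart, BDL replicate 1 and BDL_H replicate 2. Ccl7, the neighbouring gene whose product shares CCR2 with CCL2, had its highest value in the same library as Ccl2, BDL_H replicate 3 (2.47 FPKM), and its lowest in BDL_H replicate 2 (0.219).

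Ccl3, Ccl4 and Ccl5 encode the macrophage inflammatory proteins MIP-1 alpha and MIP-1 beta and RANTES, which attract macrophages and T cells. Their log2 differences for HDCA in ligated livers were 0.37 ± 0.25 (SE), 0.13 ± 0.27 and 0.30 ± 0.30. Ccl6 (0.00 ± 0.33), Ccl9 (-0.17 ± 0.28) and Ccl8 (0.12 ± 0.29) lay within 1 SE of 0. The median of the 10 genes was 0.13, beside 0.03 over all genes tested.

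In the livers taken as Abcb4-/-, HDCA was set against no treatment over 21 days. The groups lay apart for Ccl24 alone among the 10, upward, where 1.35% of all genes did so upward and 4.6% downward. Ccl24 was at 2.06, 1.40 and 2.31 FPKM in MDR and at 2.40, 2.58 and 2.63 in MDR_H, a log2 difference of 0.29 ± 0.26 (SE; limma adjusted p = 1.00). This is opposite in sign to the ligated livers, and limma's test of the difference between the models called 0% of genes (200, or 1.85%, at an unadjusted p under 0.05). Ccl24 and Ccl21a differed by 1.19 ± 0.36 and -1.34 ± 0.39 in that test, adjusted p = 1.00 for both with limma. Of all genes limma called 0% here (0 of 10805; 61 genes, 0.565%, at an unadjusted p under 0.05), and limma-voom called 0.

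Ccl21a was at 14.7, 32.6 and 21.7 FPKM in MDR and at 20.7, 19.6 and 19.6 in MDR_H, a log2 difference of -0.13 ± 0.28 (SE). The treated values sit within the untreated range and closer together, with an SD of 0.646 against 9.00. Ccl2 was at 8.83, 11.5 and 10.8 FPKM in MDR and at 9.41, 10.6 and 6.76 in MDR_H, a far narrower spread than in the ligated livers. Ccl6 was at 25.1, 55.7 and 54.6 in MDR, the low value being replicate 1, and at 66.5, 42.8 and 40.9 in MDR_H. Ccl9 was likewise lowest in MDR replicate 1 (28.6 FPKM, against 45.3 and 44.5). The median log2 difference of the 10 genes was 0.10, beside -0.04 over all genes tested.

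**Figure D2:**
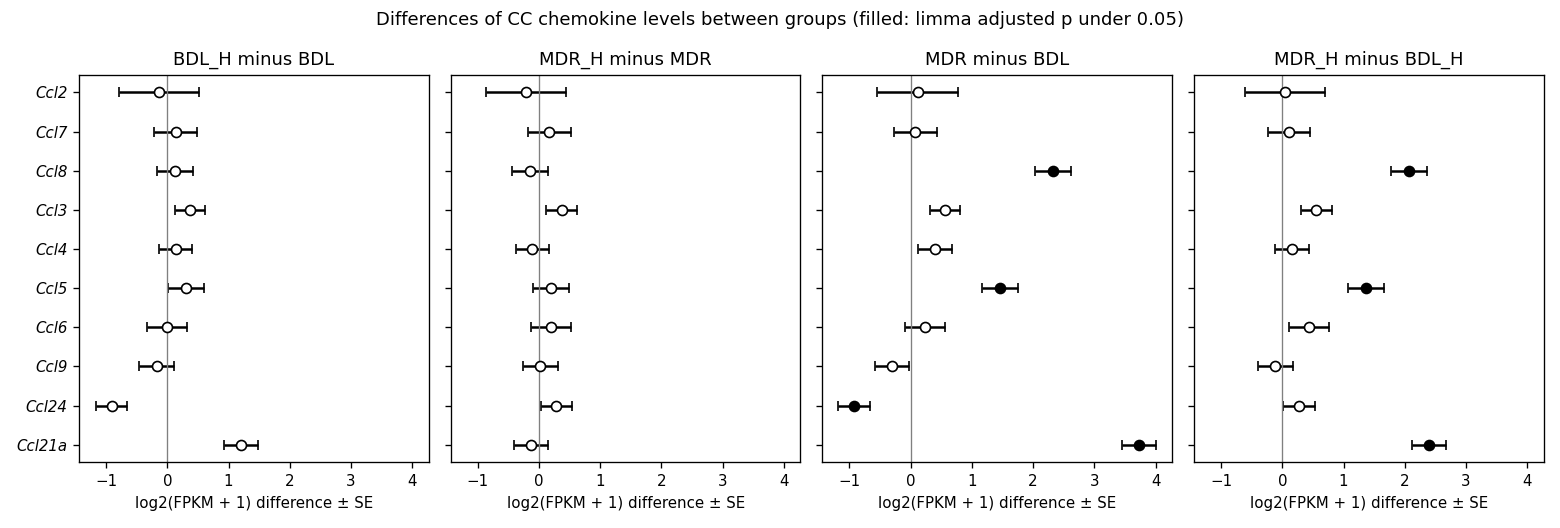
Differences of log2(FPKM + 1) ± SE (horizontal axes) of the 10 genes (vertical axis) in 4 comparisons, from limma on all 12 libraries; filled points had an adjusted p under 0.05 over the 10805 genes tested. Filled points are Ccl8, Ccl5 and Ccl21a in both comparisons of the models and Ccl24 in untreated livers.

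Untreated livers of the models, MDR against BDL, differed in 4 of the 10 genes. Ccl21a, Ccl8 and Ccl5 were called higher in MDR and Ccl24 lower, where 15.1% of all genes were called higher and 1.07% lower. The median difference of all genes tested was 0.25 on the log2 scale, a shift towards MDR that median-of-ratios scaling took to -0.05. With that scaling 609 genes were called higher and 485 lower, in place of 1630 and 116, and the calls of the 4 genes stood in the same directions. The HDCA-treated livers, MDR_H against BDL_H, were other libraries with the same contrast: 3 of the 10 were called higher (7.36% of all genes) and 0 lower (0.935%). The models share no libraries between these comparisons, though the spread was estimated over all 12.

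Ccl21a gave the largest difference of the 10 in log2(FPKM + 1). By limma-voom that of Ccl8 was the larger, at 5.08 against 4.97 untreated and 3.63 against 2.75 treated, as was its ratio of mean FPKM in treated livers. The 6 MDR and MDR_H values of Ccl21a, 14.7 to 32.6 FPKM, all lay above its 6 of BDL and BDL_H, 0.441 to 4.52. The ratio of means was 30.8 in untreated livers and 6.41 in treated ones, with log2 differences of 3.73 ± 0.28 (SE; limma adjusted p = 9.1e-05) and 2.39 ± 0.28 (adjusted p = 0.00286). Both calls stood in every alternative setting. Lymphatic endothelial markers summed to 28.7 to 40.3 FPKM in MDR and 25.2 to 41.4 in MDR_H, and 4 of 6 were called higher in untreated livers and 3 of 6 in treated ones. Mmrn1 and Tbx1, called in both, reached 1 FPKM in MDR and MDR_H alone and so entered the test through the higher groups. Among them Mmrn1, a marker of lymphatic vessels, went from 0.022 to 0.124 FPKM in BDL to 1.51 to 3.61 in MDR, while Prox1, which hepatocytes also express, was at 8.71 to 18.9 and 10.2 to 13.1. Stellate cell and fibroblast markers moved as well, from 61.5 to 120.9 to 221.4 to 444.4 FPKM, with 8 of 10 called higher; in treated livers they went from 123.2 to 204.4 to 277.3 to 382.0, with 7 of 10 called higher. Of blood and sinusoidal endothelium markers, 6 of 10 were called higher in untreated livers (30.1 to 131.9 FPKM in BDL, 152.1 to 188.9 in MDR) and 0 of 10 in treated ones by limma, where 1 had an unadjusted p under 0.05 (122.9 to 140.8 in BDL_H, 154.5 to 198.3 in MDR_H). The part of these cell types in the Ccl21a difference was not tested.

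Ccl8, whose mouse product acts on CCR8, was listed at 0, 0.488 and 0.255 FPKM in BDL and at 3.26, 7.79 and 5.30 in MDR. In BDL_H it was at 0.302, 0.294 and 0.435 and in MDR_H at 6.96, 4.92 and 2.73. It reached 1 FPKM in MDR and MDR_H libraries alone, so it could enter the test only through the higher groups. Recovered reads were 0 to 10 in the lower groups and 55 to 149 in the higher ones. The log2 difference was 2.33 ± 0.29 (SE; limma adjusted p = 0.00181) untreated and 2.06 ± 0.29 (adjusted p = 0.00546) treated, and the ratio of mean FPKM was 22.0 and 14.2. Ccr8 was at 0 in all BDL and BDL_H libraries and reached at most 0.208 FPKM in MDR.

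Ccl5 was at 1.199, 3.80 and 1.52 FPKM in BDL and at 5.20, 7.28 and 9.88 in MDR. In BDL_H it was at 3.53, 1.84 and 2.88 and in MDR_H at 8.33, 9.76 and 7.48, again with no overlap. Untreated groups lay apart upward for 39.2% of all genes, so a lack of overlap is common. The share in treated livers is not given here. The log2 difference was 1.47 ± 0.30 (SE; limma adjusted p = 0.0100) untreated and 1.36 ± 0.30 (adjusted p = 0.0245) treated. In treated livers the call ended without BDL_H replicate 2 (1.18, adjusted p = 0.0797) and without MDR_H replicate 1 (0.0712), 2 (0.0839) or 3 (0.0564); untreated, it ended with limma on only the libraries compared (0.0501). T and NK cells are a known source of Ccl5. Their markers summed to 1.64 to 4.32 FPKM in BDL, 1.44 to 4.54 in BDL_H, 6.44 to 12.0 in MDR and 8.88 to 10.3 in MDR_H, none of the 10 measured being at 0 throughout a group. Of the 5 tested, 2 were called higher in each comparison, Cd4 and Nkg7 in untreated livers and Cd3g and Gzmb in treated ones. Cd4 reached 1 FPKM in MDR alone and Gzmb in MDR_H alone, so both entered the test through the group where they were higher. Cd3g and Nkg7 each reached 1 FPKM in 1 ligated library, BDL replicate 2 and BDL_H replicate 3. They too could pass the filter only through MDR and MDR_H. Cd3g, a chain of the T cell receptor complex, was at 0.367 to 0.729 FPKM in BDL_H and 1.83 to 2.37 in MDR_H. The part of these cells in the Ccl5 values was not tested.

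Ccl24 was lower in untreated MDR, at 1.40 to 2.31 FPKM against 3.18 to 5.35 in BDL (log2 difference -0.92 ± 0.26 (SE), limma adjusted p = 0.0338). In treated livers the values overlapped, with a log2 difference of 0.27 ± 0.26 (adjusted p = 0.508). The untreated call was close to the threshold. It ended without BDL replicate 2 (adjusted p = 0.0952) or 3 (0.0742), MDR replicate 1 (0.0590), 2 (0.139) or 3 (0.0637) and MDR_H replicate 2 (0.0505) or 3 (0.0502). It also ended with a pseudocount of 0.1 (0.0516), no filter on low values (0.05003), limma-voom (0.0537) and only the libraries compared (0.0516). Of genes linked to alternative activation of macrophages, a state in which Ccl24 is known to be made, 2 of 9 tested were called higher in untreated MDR and 1 lower. The lectin Mgl2 was at 0.026 to 0.239 FPKM in BDL and 1.89 to 6.31 in MDR (2.09 ± 0.32 (SE), limma adjusted p = 0.00348). The chitinase-like Chil3 was at 4.92 to 10.2 and 0.418 to 0.538 (-2.33 ± 0.40, adjusted p = 0.00524), and the mannose receptor Mrc1 at 4.14 to 11.9 and 12.4 to 17.3. Mgl2 reached 1 FPKM in MDR and MDR_H alone and Chil3 in BDL and BDL_H alone, so both entered the test through the model where they were higher.

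The other 6 genes were not called in either comparison of the models. Ccl2 averaged 10.4 ± 5.17 FPKM (SD, n = 3) in BDL and 10.4 ± 1.38 in MDR (log2 difference 0.12 ± 0.66 (SE), limma adjusted p = 0.913), and Ccl7 0.688 ± 0.324 and 0.768 ± 0.236. An SE of 0.66 leaves room for a sizeable difference in Ccl2 in either direction. Ccl3 was at 0.253 to 0.549 FPKM in BDL and 0.751 to 1.39 in MDR, groups that do not overlap, with a difference of 0.56 ± 0.25 (adjusted p = 0.137). Groups lay apart upward for 39.2% of all genes in this comparison, a large background. Ccl4 was at 0.40 ± 0.27, Ccl6 at 0.23 ± 0.33 and Ccl9 at -0.31 ± 0.28. Array weights, which count the libraries that stand apart less, called Ccl3 (0.64, adjusted p = 0.0105) and Ccl4 (0.64, 0.0260) higher and Ccl9 (-0.40, 0.0359) lower in untreated MDR, though the estimate of the weights stopped before it reached its tolerance. In treated livers the log2 differences were 0.56 ± 0.25 for Ccl3 (limma adjusted p = 0.167), 0.43 ± 0.33 for Ccl6 (0.406) and between -0.11 and 0.155 for Ccl2, Ccl4, Ccl7 and Ccl9. The median of the 10 genes was 0.31 untreated and 0.35 treated, beside 0.25 and 0.20 over all genes tested.

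Macrophage markers are given beside these genes. Kupffer cell markers summed to 279.7 to 617.9 FPKM in BDL, 321.3 to 713.8 in BDL_H, 532.1 to 784.1 in MDR and 655.4 to 724.1 in MDR_H, and 1 of 11, C1qa, was called higher in MDR, untreated and treated. By the sign of the log2 difference, 7 of the 11 were higher and 4 lower in each of these comparisons, with 0 called lower. Clec4f, which defines Kupffer cells, was at 21.1 to 48.2 FPKM in BDL and 37.9 to 52.8 in MDR. Marco, also a Kupffer cell marker, had a lower mean in MDR, at 13.5 to 38.8 and 11.2 to 15.0. Monocyte and recruited macrophage markers summed to 234.9 to 663.8 FPKM in BDL, 222.8 to 837.7 in BDL_H, 793.8 to 1678 in MDR and 926.8 to 1249 in MDR_H. Of 11, 5 were called higher in untreated MDR and 1 in treated, among the 5 the integrin Itgax at 0.324 to 1.46 and 3.82 to 8.13. Itgax reached 1 FPKM in 1 BDL and 1 BDL_H library, so it could pass the filter only through MDR and MDR_H. No marker of either list was at 0 throughout a group. The lowest sums of both lists in the ligated livers fell in BDL replicate 1 and BDL_H replicate 2, which also held the lowest Ccl2 values. Their part in the chemokine values was not tested.

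**Figure D3:**
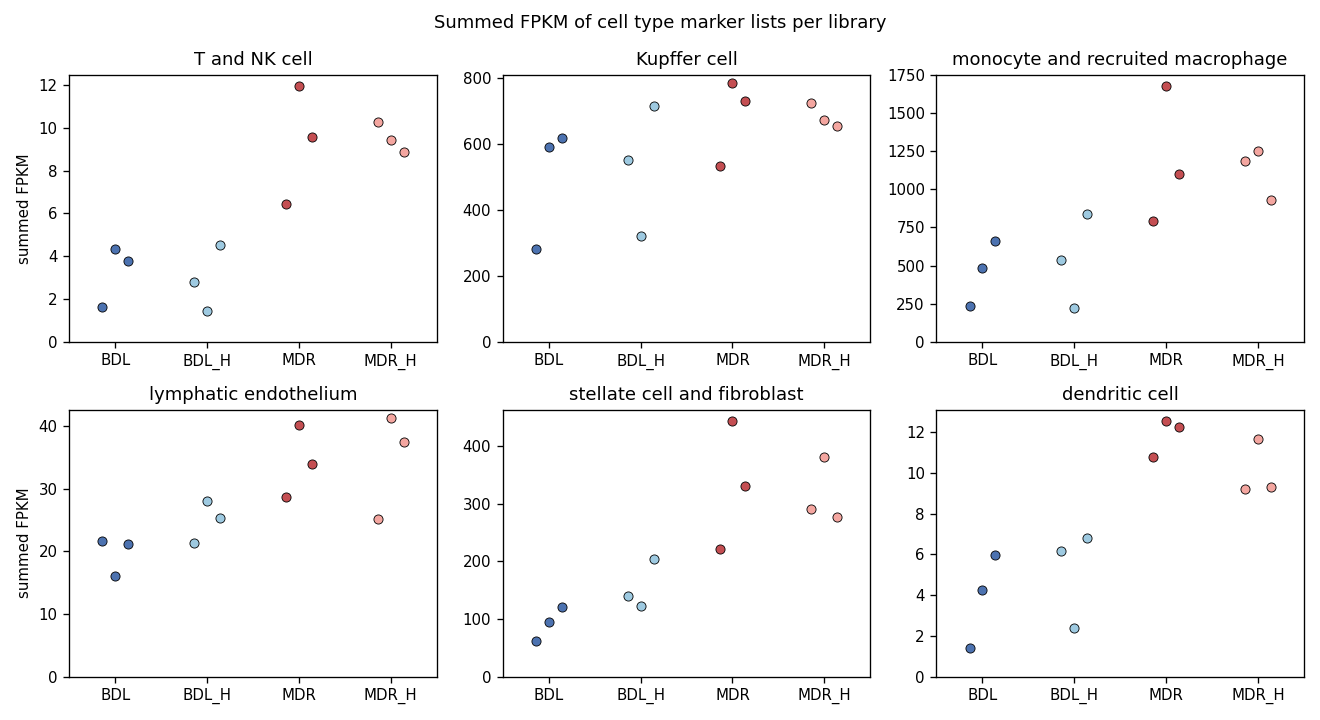
Summed FPKM of 6 marker lists (vertical axes, from 0) per library in the 4 groups; points are libraries in order of replicate number. T and NK cell, dendritic cell, and stellate cell and fibroblast sums are higher in every MDR and MDR_H library than in any BDL or BDL_H library.

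Of the 11 further CC chemokines in the table, 6 were tested, and in untreated livers 3 were called higher in MDR and 0 lower. Ccl22 and Ccl17, ligands of CCR4, differed most. Ccl22 was at 0.070 to 0.221 FPKM in BDL and 2.99 to 3.56 in MDR (1.92 ± 0.16 (SE), limma adjusted p = 0.000317) and Ccl17 at 0.017 to 0.157 and 0.790 to 1.63 (1.05 ± 0.25, adjusted p = 0.0189). Ccl19, which shares CCR7 with Ccl21a, was at 0 to 0.643 and 1.29 to 2.55 (1.04 ± 0.27, adjusted p = 0.0266). In treated livers Ccl22 (1.76 ± 0.16, adjusted p = 0.00063) and Ccl17 (1.34 ± 0.25, adjusted p = 0.0139) were called higher, and Ccl19 was not (0.83 ± 0.27, adjusted p = 0.0783). Apart from Ccl19 in BDL_H replicate 3 (1.18), all 3 reached 1 FPKM in MDR and MDR_H libraries alone, and so entered the test through the higher groups. Ccl12, which like Ccl2 acts on CCR2, was at 0, 0 and 0.194 FPKM in BDL and 1.10, 0.187 and 0.691 in BDL_H, a difference of 0.61 for HDCA that was not called. With HDCA in MDR the difference was 0.54 ± 0.23 (SE), also not called. There the lowest Ccl12 value of MDR_H (0.8512 FPKM) lay just above the highest of MDR (0.8509). Ccl25 (0.957 ± 0.148 FPKM (SD, n = 3) in BDL, 1.12 ± 0.402 in MDR) and Ccl27a (1.31 ± 0.392 and 2.48 ± 0.494) were not called, and Ccl1, Ccl11, Ccl20, Ccl21b and Ccl28 were too low to be tested. With HDCA the groups lay apart for Ccl25 downward in BDL (-0.28 ± 0.16 (SE)) and for Ccl27a upward in MDR (0.42 ± 0.21). Neither was called.

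Among the receptors, Ccr2, which binds Ccl2 and Ccl7, was at 0.459 to 1.88 FPKM in BDL and 2.55 to 8.37 in MDR (1.201 ± 0.38 (SE), limma adjusted p = 0.0531) and Ccr1, which binds Ccl3 and Ccl5, at 0.793 to 1.08 and 0.479 to 2.10 (0.22 ± 0.30, adjusted p = 0.621). In treated livers neither was called. Ccr7, the receptor of Ccl21a, stayed at 0.090 to 0.456 FPKM in BDL and BDL_H and 0.310 to 1.08 in MDR and MDR_H, under the level tested. Among atypical receptors, which bind chemokines without signalling for migration, Ackr2, a scavenger of inflammatory CC chemokines on lymphatic vessels, was called higher in untreated MDR (0.346 to 1.07 FPKM in BDL, 1.75 to 2.01 in MDR; 0.79 ± 0.20, adjusted p = 0.0257). Ackr3 and the non-signalling receptor Ccrl2 were tested and not called, and Ackr4, which takes up Ccl21a and Ccl19, was at 0.112 to 0.410 FPKM in BDL and 0.476 to 0.914 in MDR. With HDCA limma called none of Ccr1, Ccr2, Ackr2, Ackr3 and Ccrl2 in either model.

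**Figure D4:**
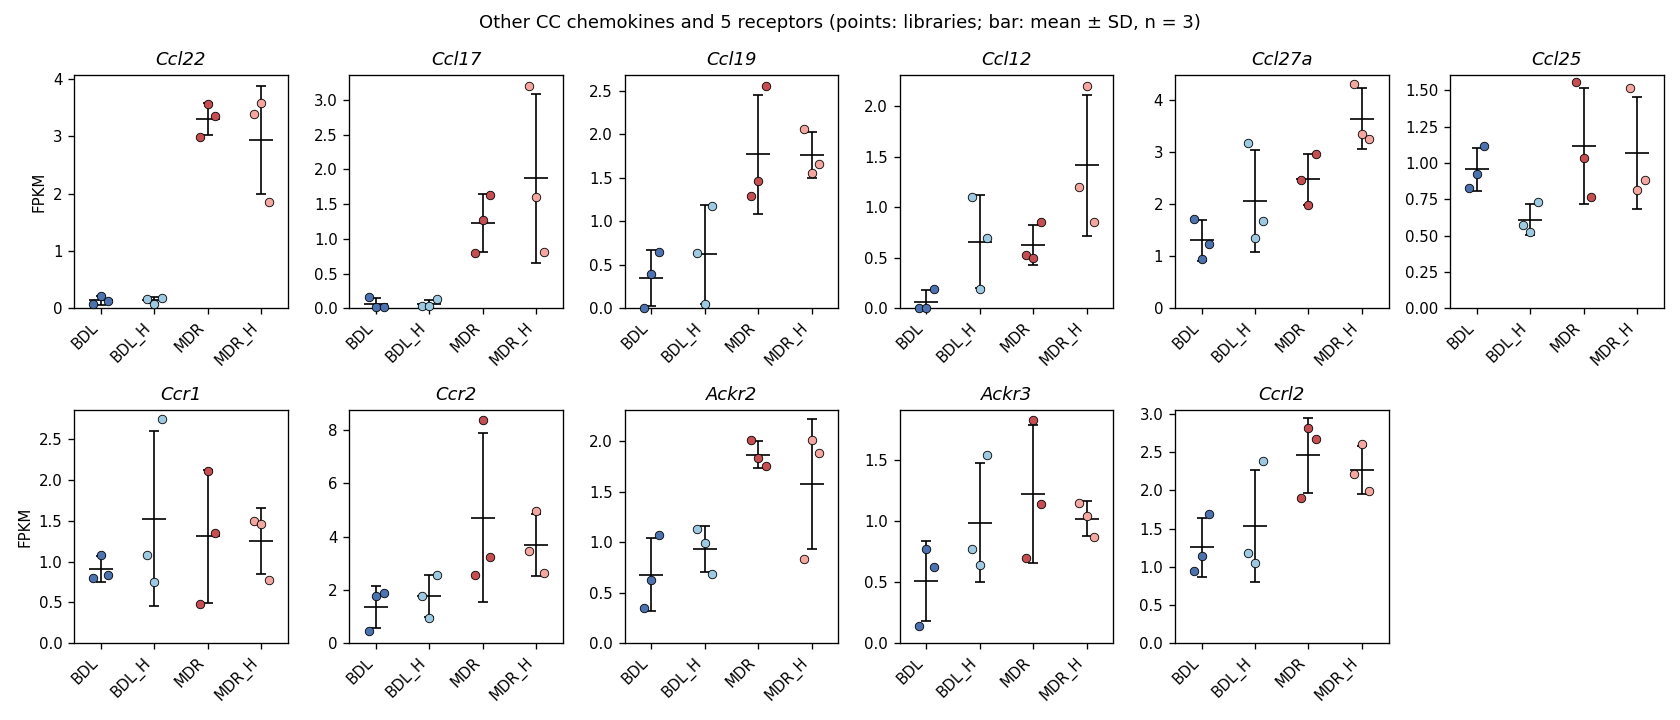
FPKM of the other CC chemokines that were tested and of 5 receptors (vertical axes, each from 0) in the 4 groups; points are libraries in order of replicate number and bars are means ± SD of 3 libraries, cut off at 0. Ccl22 lies at 1.86 FPKM or more in every MDR and MDR_H library and at 0.221 or less in the others.

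Genes of NF-kB signalling, the pathway through which TNF and interleukin 1 switch on many CC chemokine genes, were not called. All 16 listed were tested, and 0 of 16 passed limma's threshold in any comparison. Il1b was at 2.11 to 3.26 FPKM in BDL, 2.52 to 6.03 in BDL_H, 3.10 to 8.03 in MDR and 5.84 to 7.31 in MDR_H. Nfkbia, an inhibitor that the pathway itself induces, stayed at 20.4 to 32.9 FPKM in all 12 libraries. The median log2 difference of the list between untreated models was 0.27, beside 0.25 over all genes tested.

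The genes with the most similar profiles were found by the root mean square distance between values of log2(FPKM + 1), centred and scaled over the 12 libraries, so that 0 means the same shape. For Ccl21a they were the matrix genes Dpt (0.168), Fbln5 (0.169) and Dcn (0.182), and for Ccl8 Casp12 (0.135), Ccl22 (0.190) and Prkar1b (0.207). These profiles all share the split between the models. For Ccl5 they were Gm13889 (0.276), Mypop (0.278) and Gys1 (0.284). For Ccl2, whose profile is led by low values in BDL replicate 1 and BDL_H replicate 2, they were Metrnl (0.248), Plscr1 (0.294) and Maff (0.310), and for Ccl9 Tcf24 (0.219), Ifi30 (0.379) and Rras (0.386). Ccl6 lay nearest to Vps28 (0.394), Igsf6 (0.494) and Srgn (0.502), Ccl24 to Ddit3 (0.529), Cpn1 (0.566) and Tmco4 (0.601). None of these 7 genes, each averaging at least 1 FPKM, had another of the 10 among its 3 nearest; Ccl8 was at rank 100 for Ccl21a, and Ccl21a at rank 104 for Ccl8.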

How the data were processed

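Polyadenylated liver RNA was extracted with TRIzol and made into libraries using VAHTS Universal V6 reagents, per the labels' protocols. Tools listed, with no order, in the submitters' processing notes are DESeq2 1.20.0, HISAT2 2.0.5, fastp, CASAVA 1.8 and featureCounts 1.5.0-p3, on GRCm38 (mm10). Annotation and strand setting were not given in the sources here. Without strand, antisense reads cannot be told apart. The authors deposited FPKM values for 16970 genes in 12 libraries, assigned to groups by title.

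FPKM is not a count. log2(FPKM + 1), which understates the change of low genes, was fitted with limma 3.58.1 (R 4.3.3), with trend, on 4 group means, for 10805 genes with at least 1 FPKM in at least 3 libraries. P-values were two-sided, Benjamini-Hochberg adjusted over those genes and called under 0.05. The smallest whole read numbers that matched the steps between FPKM values were found for 16968 genes (99.99%, tolerance 0.02 of a read). They were used for read numbers and limma-voom. They are too low where the true numbers share a divisor, as for a gene above 0 in a single library. The fit was tested on simulated data. Text names the 10 genes, tested CC chemokines and receptors (1 gene is not reported here), up to 3 of each other list, and 3 nearest profiles; a few further genes were chosen after their values were seen. The members and lists were chosen with earlier results of these data known. Same-numbered MDR and MDR_H libraries deviated together (correlations of 0.312 to 0.548). The main fit nevertheless took no libraries as pairs. Replicate number entered only as a block over all 12 libraries, in an alternative setting.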

Additional observations from a re-analysis of the deposited data

Results flagged for a closer look

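The values of Ccl24 lay on opposite sides of the untreated ones with HDCA in the 2 models. All 3 BDL_H libraries were below all 3 BDL libraries and all 3 MDR_H libraries were above all 3 MDR libraries. Opposite directions in the 2 models without overlap, either way round, were seen for 28 of 10805 genes (0.259%). The HDCA effect in MDR minus that in BDL was 1.19 ± 0.36 (SE) in log2(FPKM + 1). It did not pass the test of the difference over all genes (limma adjusted p = 1.00, where 0 genes were called and 1.85% had an unadjusted p under 0.05). Over the alternative settings the difference lay between 0.89 and 1.71, with an adjusted p of 0.320 at the lowest.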

How the results depend on the processing

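The 10 genes gave 50 differences in 5 comparisons, refitted under 23 other settings. The 7 called differences kept their sign in all 158 refits and their call in 142; the 16 calls that ended were those of Ccl24 in untreated livers and of Ccl5. Of the 50, 29 changed sign in at least 1 refit, none of them called. The count of all called genes moved more. For untreated models it was 1746 and became 616 with a mean FPKM of at least 5, 1094 with median-of-ratios scaling (609 higher, 485 lower), 941 with quantile normalization (548 and 393), 4947 with array weights, 729 with only the libraries compared, and 489 to 2346 without 1 library (1151 without BDL replicate 1, 865 without BDL replicate 2, 688 without MDR replicate 3 and 489 without MDR replicate 2). For treated models it was 896 and became 436 with a mean FPKM of at least 5, 2750 with array weights, 542 with only the libraries compared, 589 with the replicate block, 1597 without BDL replicate 1, BDL_H replicate 2 and MDR replicate 1 (chosen after seeing the data), and 167 to 1550 without 1 library. Median-of-ratios scaling gave 319 higher and 371 lower there, quantile normalization 380 and 339. For HDCA in BDL array weights called 1 gene in place of 0. The estimate of the array weights stopped before it reached its tolerance. The causes were not tested. The block changed no call of the 10 genes. A mean FPKM of at least 5 left no value for Ccl3, Ccl4, Ccl7, Ccl8 and Ccl24, and fits of only the libraries compared none for the difference of HDCA effects. Depth limits Ccl3, Ccl4, Ccl7 and Ccl8, and intervals would cover counting error only.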
